A study of Homo sapiens with 3 samples.

Results

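The regions described here are the places where HDAC1 was called both with and without the kinase inhibitor H89 and where the authors' score was lower with H89. A site was a pair of summits, 1 from each list, each being the nearest summit of the other list and lying within 1000 bp on the same chromosome or contig of the hg19 build. A pair was taken when its control score exceeded its H89 score by more than 0.1. The rule took 1184 of 8189 pairs, or 14.5% (exact binomial 95% interval 13.7 to 15.2%). Another 2892 pairs (35.3%) differed by at most 0.1 and are called tied, and 4113 pairs (50.2%) scored higher with H89. The members were thus chosen by the same H89 and control scores that are described below, so their lower scores are a description and no test was made of them.

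HDAC1 is a lysine deacetylase that removes acetyl groups from histone tails. It is the catalytic subunit of several large complexes, among them NuRD, SIN3 and CoREST, and is found both at silenced genes and at promoters and enhancers of active genes. H89 inhibits protein kinase A, the kinase switched on by cyclic AMP, which in liver cells carries the glucagon signal; H89 also inhibits other kinases. HepG2 is a human hepatoma cell line widely used as a model of hepatocytes.

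The groups were HepG2 cells of wild-type genotype treated with H89, and HepG2 cells of the same genotype without it, which are the control. Each was represented by 1 CUT&Tag library, in which an antibody tethers a transposase that cuts and tags the DNA beside its target. An IgG library from untreated cells was not analysed here. Dose and duration of H89 were not given in the sources used here. With 1 library a condition, no difference below has a replicate check, and the effect of H89 cannot be told apart from a difference between the libraries.

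The authors deposited 11553 summits for H89, with scores of 2.02 to 133.1, and 9476 summits for control, with scores of 2.03 to 76.5. The score was read from its values as −log10 of a p-value, so 1 unit is a factor of 10 in p. Depth was not given, and the counting error of each score was not estimated. The intervals given on shares and medians cover counting of sites only.

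The sites had middling scores in the control list and low scores in the H89 list. Their H89 scores had a median of 3.44 (interquartile range 2.96 to 5.49, range 2.03 to 35.6), against a control median of 5.50 (4.77 to 7.67, range 2.38 to 38.5). In all other pairs the median was 5.49 with H89 and 4.77 in control. The H89 score was below 3 at 360 of the 1184 sites (30.4%), against 8.28% of the other pairs. The H89 score reached 10 at 51 sites (4.31%), against 15.4% of the other pairs, while the control score reached 10 at 123 sites (10.4%), against 7.0% of the other pairs. The percentile within each list is taken from the same scores. Every site stood at a lower percentile with H89, but so did 2875 of the 2892 tied pairs (99.4%). The median percentile of the sites was 29.9 with H89 and 66.4 in control. At 985 sites (83.2%) that gap was over 10 percentile points.

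The median difference, H89 minus control, was −1.97 (order-statistic 95% interval −2.06 to −1.94), with an interquartile range of −2.18 to −1.42. Drops of over 0.5 were found at 1089 sites, of over 1 at 1012 (85.5%), of over 2 at 591 (49.9%) and of over 5 at 16 (1.35%). The middle of the distribution was narrow, and large drops were few. Just inside, a site in 11p15.5 scored 3.0 with H89 (chromosome 11, position 819098) and 3.10 in control (position 819292). Just outside, a pair in 16p11.2 scored 2.34 with H89 (chromosome 16, position 30441716) and 2.44 in control (position 30441603).

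**Figure D1:**
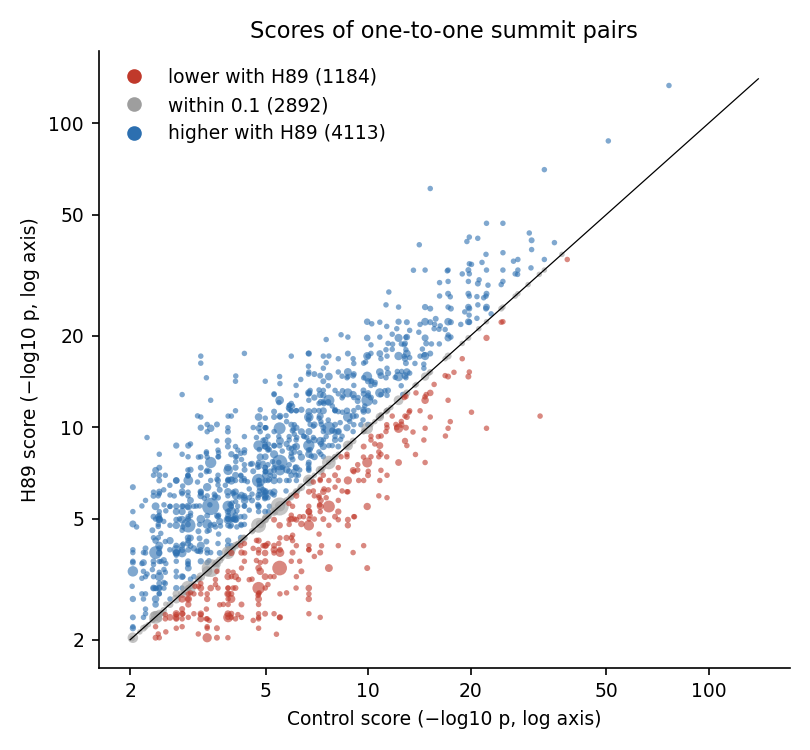
Scores of the 8189 summit pairs: control score across, H89 score up, both −log10 p on log axes, with the 1184 lower, 2892 tied and 4113 higher pairs in separate colours. The lower sites form short rows beneath the diagonal at repeated values, with medians of 3.44 with H89 and 5.50 in control.

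The share of pairs that scored lower was smallest at low control scores. It was 4.24% (61 of 1437) at control scores of 2 to 3 and 8.16% at 3 to 4. From 4 upward it was 20.4%, 19.5%, 21.6%, 18.6%, 21.7% and 17% in the classes beginning at 4, 5, 6, 8, 10 and 15. At 20 or more it was 13.8% (9 of 65), and 69.2% of those pairs scored higher with H89. The low share at the bottom is partly fixed by the lists, since neither holds a score under 2.

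The scores took few values. The 1184 sites showed 300 distinct pairs of H89 and control score, and the 5 commonest pairs held 527 sites (44.5%). The commonest was 3.44 with H89 and 5.50 in control, at 235 sites (19.8%). The next were 2.96 with H89 and 4.77 in control at 109 sites, and 5.49 with H89 and 7.67 in control at 93 sites. These repeated values matched the upper tail of a Poisson distribution: the score equalled −log10 of the probability of at least a whole count, given a background mean. Within the rounding of the tables this held for 99.9% of summits in each list. The lowest mean was 0.0271 with H89 and 0.0269 in control. At that mean, counts of 2, 3, 4, 5 and 6 give scores of 3.44, 5.49, 7.66, 9.92 and 12.27 with H89 and of 3.45, 5.50, 7.67, 9.94 and 12.29 in control. The counts are those the score implies; they may have been scaled before scoring and are not read counts from the files.

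Read in this way, most of the sites differed by 1 count. A pair is said to have the same mean where both scores matched the lowest mean of their own list, the same multiple of the unit mean of their own list (a smaller mean whose whole multiples gave other means), or the same whole number; the lists' means then still differed slightly, as at the lowest mean. At 893 sites (75.4%, interval 72.9 to 77.9%) both scores had the same mean in this sense, and at 804 (67.9%, 65.2 to 70.6%) the H89 count was exactly 1 lower. At 74 sites (6.25%) it was 2 lower, at 9 it was 3 lower and at 6 more than 3 lower. The 235 commonest sites are counts of 2 with H89 and 3 in control.

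At the 893 sites the median difference in score was −2.06. At another 290 sites (24.5%) the means differed, and in 243 of these the mean was higher with H89. The median difference in score there was −0.90, and the H89 count was lower at 80, equal at 88 and higher at 122. So 210 of the 1184 sites (17.7%, 15.6 to 20%) scored lower without a lower implied count, and 973 (82.2%) had a lower one. Of the 7005 other pairs, 6483 (92.5%) had the same mean in both lists. These include 2857 of the 2892 tied pairs.

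**Figure D2:**
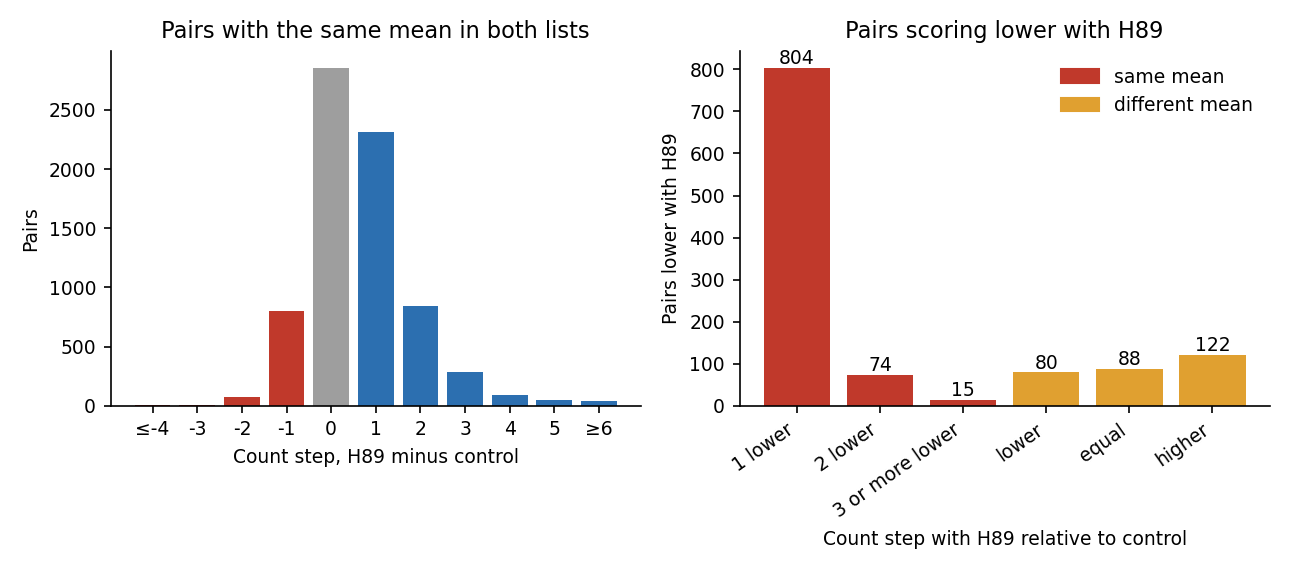
Left, number of pairs by the H89 count minus the control count that the scores imply (count step), for pairs with the same background mean; right, the pairs lower with H89 by the same measure, with same and different means in separate colours. On the left the bar at 1 count lower holds 804 of the lower sites, the bar at no change 2857 pairs and the bar at 1 count higher 2311 pairs.

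The lists' lower limit bears on which pairs could be lower. Where 1 count less at the control's mean would fall under a score of 2, 64 of 2522 pairs were lower (2.54%), against 1119 of 5662 (19.8%) where it would not. Among pairs with the same mean, 2233 were of the first kind, and 0 of these were lower, as the limit itself requires. In the other 5143 pairs with the same mean, 893 (17.4%, 16.3 to 18.4%) were lower, 1802 (35%) tied and 2448 (47.6%) higher. At the lowest mean the lower share by control count was 0 of 1091 at 2, 19.3% at 3 (235 of 1220), 21.4% at 4 (105 of 491) and 18.3% at 5 (51 of 279). It was 24.4% at 6, 17.5% at 7 and 15% at 8 to 29 (12 of 80).

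The 10 largest drops were spread over several chromosomes, and those in 14q13.1, 19p13.3 and 14q32.13 each had another lower pair next to them within 50 kb. None is assigned to a gene here. The largest was in 9p11.2, beside the centromere of chromosome 9, with a score of 10.9 with H89 (position 45119976) and 32.0 in control (position 45119971), a drop of 21.1. It implies counts of 7 with H89 and 17 in control at the same mean. A site in 15q26.3 scored 9.92 with H89 (chromosome 15, position 101874508) and 22.3 in control (position 101874549). Its counts were 5 with H89 and 10 in control.

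The site in 1p36.13 differed in kind. It scored 11.21 with H89 (chromosome 1, position 16993549) and 20.12 in control (position 16992910), with summits 639 bp apart and background means of 2 with H89 and 1 in control. Its counts, 18 with H89 and 21 in control, were the closest in proportion of the 10 largest drops. The site in 14q13.1 had larger counts, 22 with H89 and 31 in control, with scores of 9.36 with H89 (chromosome 14, position 35016468) and 16.9 in control (position 35016463).

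Drops of 7.25, 7.05 and 7.0 followed, in 9q34.3, 7p22.3 and 19p13.3. The 9q34.3 site scored 9.92 with H89 (chromosome 9, position 139916567) and 17.2 in control (position 139916629). The 7p22.3 site scored 7.66 with H89 (chromosome 7, position 579324) and 14.7 in control (position 579368). The 19p13.3 site scored 10.4 with H89 (chromosome 19, position 674701) and 17.4 in control (position 674671). These 3 sites lie in terminal bands of their chromosomes. So do the 15q26.3 site above and the 18p11.32 site below, at 0.66 and 0.71 Mb from a chromosome end.

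Sites in 17q21.2 (chromosome 17, position 40336104 with H89) and 18p11.32 (chromosome 18, position 712581 with H89) had identical scores of 3.44 with H89 and 9.94 in control. Both imply counts of 2 with H89 and 5 in control. The tenth was in 14q32.13, a band known for the cluster of serpin genes that liver expresses. It scored 8.14 with H89 (position 94812683) and 13.8 in control (position 94812659), with counts of 27 with H89 and 38 in control and means of 7 with H89 and 8 in control.

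The highest control scores included large and small drops. The highest control score among the members was in 2p21, at 35.6 with H89 (chromosome 2, position 46636478) and 38.5 in control (position 46636463), which is 15 counts with H89 and 16 in control. The second highest was the 9p11.2 site above, with the largest drop of all. Sites in 3p25.1 scored 22.24 with H89 and 24.89 in control, in 20q13.13 scored 22.16 with H89 and 24.60 in control, and in 11q14.1 scored 19.7 with H89 and 22.3 in control, each 1 count lower. Among sites with a control score of at least 5, the largest proportional loss was in 12q24.31. Its score was 2.37 with H89 (chromosome 12, position 125313103) and 7.23 in control (position 125313105), a loss of 67.2%, from counts of 2 with H89 and 5 in control.

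The distance between the paired summits was not used by the rule beyond its limit of 1000 bp. Pairs are not replicates of a condition, so it is given with its counting interval and no test. The median offset between the H89 and the control summit was 64 bp (interval 59 to 69), against 52 bp (50 to 54) in the other pairs. It was 59 bp in tied pairs and 48 bp in pairs higher with H89. Offsets of at most 50 bp were found at 41.7% of the lower sites and 49.0% of the other pairs. Offsets over 400 bp were found at 77 sites (6.50%, 5.17 to 8.06%), against 3.14% (2.74 to 3.58%) of the other pairs. The longest at a lower site was 927 bp. At 12 sites both summits were on the same base, against 129 of the other pairs.

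The wide offsets went with a change of background mean. Where both libraries had the same mean, the median offset was 51 bp (45 to 57) at the lower sites and 49 bp in the other pairs. Where the means differed, it was 123 bp (101 to 175) at the lower sites and 102 bp in the other pairs. Whether the distance between summits set the mean was not tested.

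**Figure D3:**
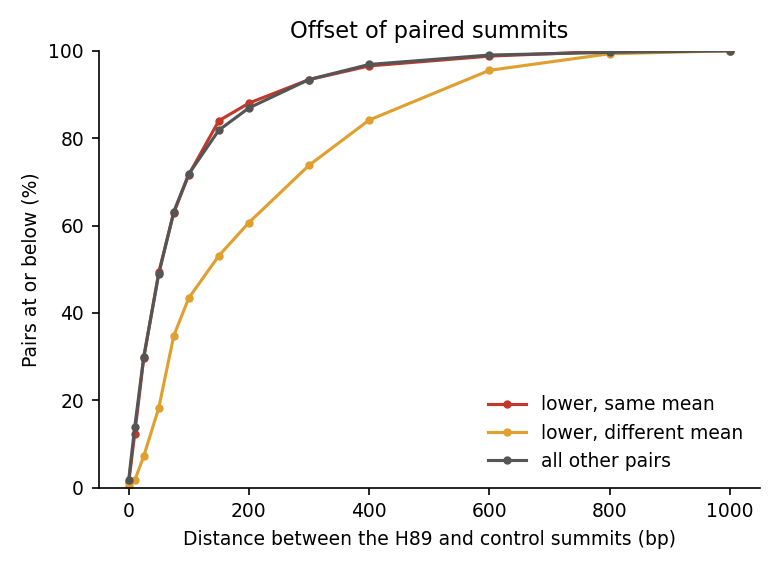
Cumulative share of pairs by the distance between the H89 and the control summit, in bp, for the lower sites with the same mean in both lists, the lower sites with different means, and all other pairs. The curve of the sites with the same mean (median 51 bp) runs close to that of the other pairs (median 52 bp), and the curve of the sites with different means (median 123 bp) runs below both.

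Further summits close to a lower site were about as rare as beside the other pairs. Whether a control peak was split into several H89 peaks was not tested, since the lists give summits only. Another H89 summit lay within 1000 bp at 38 lower sites (3.21%), against 3.25% of the other pairs. Another control summit lay that near at 29 sites (2.45%), against 2.98% of the other pairs. At 11 of the 1184 sites an H89 summit within 1000 bp reached the control score to within 0.1, and at 6 it exceeded it by more than 0.1.

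The lower sites were spread over the genome much as the other pairs were. Pale Giemsa bands (unstained or most lightly stained), which tend to be gene-rich, held 77.9% (75.4 to 80.3%) of them and 77.6% of the other pairs. The darkest bands held 4.39% of the sites, against 3.64% of the other pairs. Within 5 Mb of a chromosome end lay 16% of the sites and 15.8% of the other pairs. Within 5 Mb of a centromeric band lay 7.39% of the sites and 7.20% of the other pairs. The chromosomes commonly gained in HepG2 (2, 14, 16, 17 and 20) held 33.1% of the sites and 30.7% of the other pairs. At least 1 lower site was found in 437 of the 724 bands that held a pair.

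The chromosomes with the most sites were 2 (103), 1 (95) and 19 (95). As a share of pairs, 4 of 24 chromosomes had an interval that left out 14.5%. Chromosome 14 had 62 of 295 pairs lower (21.0%, 16.5 to 26.1%), which was 17.6% (13.1 to 23%) without its band 14q11.2. Chromosome 4 had 45 of 223 (20.2%, 15.1 to 26.1%). Chromosome 12 had 29 of 328 (8.84%, 6.0 to 12.5%) and chromosome 13 had 5 of 102 (4.90%, 1.61 to 11.1%). On the 7 alternative assemblies of the major histocompatibility complex, 18 of 212 pairs were lower (8.49%, 5.11 to 13.1%) and 144 higher. These contigs repeat 1 region, so their pairs are not separate sites; the bands 6p21.33 and 6p21.32 on chromosome 6 itself had 3 of 39 pairs lower and 27 higher.

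The pair next to each site was also classed. Another pair lay within 5 kb of 203 lower sites, and in 41 of these (20.2%, 14.9 to 26.4%) the nearest such pair was lower too. For the other pairs this was 157 of 1176 (13.4%, 11.5 to 15.4%). The distance to the next pair was alike, with a median of 33.3 kb for the lower sites and 33.7 kb for the other pairs. Within 50 kb the nearest pair was lower for 121 of 689 lower sites (17.6%, 14.8 to 20.6%) and 594 of 4151 other pairs (14.3%). Pairs that are each other's nearest were counted from both sides. The counts at 5 kb and 50 kb are therefore not independent, and their intervals may be too narrow. Counting neighbouring pairs within 50 kb, 165 sites stood in 78 unbroken runs of lower pairs, of which 71 had 2 sites. Whether these runs exceed what the overall share of lower pairs would give was not tested. The longest run had 5 sites and was in 6p22.2, between positions 26033754 and 26056562 of chromosome 6. A run of 3 sites lay in 1q21.2, between positions 149804339 and 149832608 of chromosome 1.

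These 2 bands were also the only ones, of 119 bands with at least 20 pairs, where more pairs were lower than higher. This depends on the minimum, since 1q21.2 held just 20 pairs. With at least 30 pairs there were 0 such bands, and with at least 10 there were 6. The further ones were 10q25.2 (5 lower, 3 higher), 1p35.1 (5 and 4), 20p12.1 (4 and 3) and 1p32.1 (3 and 2). The bands 6p22.2 and 1q21.2 were singled out after their values were seen. Both bands are known to hold clusters of replication-dependent histone genes, which supply histones for newly copied DNA. No summit was matched to a gene here. The counts below are for whole bands, and which of their pairs lie at the histone genes was not determined. In 6p22.2, 13 of 26 pairs were lower, 10 tied and 3 higher, so that 50% were lower (29.9 to 70.1%). In 1q21.2, 7 of 20 were lower, 10 tied and 3 higher, so that 35% were lower (15.4 to 59.2%). Together 43.5% of their pairs were lower and 13.0% higher, against 14.5% lower and 49.9% higher in all other bands. The bands were picked on these same counts, so this contrast is a description only. The summit numbers were close, at 29 with H89 and 29 in control in 6p22.2 and at 23 with H89 and 26 in control in 1q21.2.

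**Figure D4:**
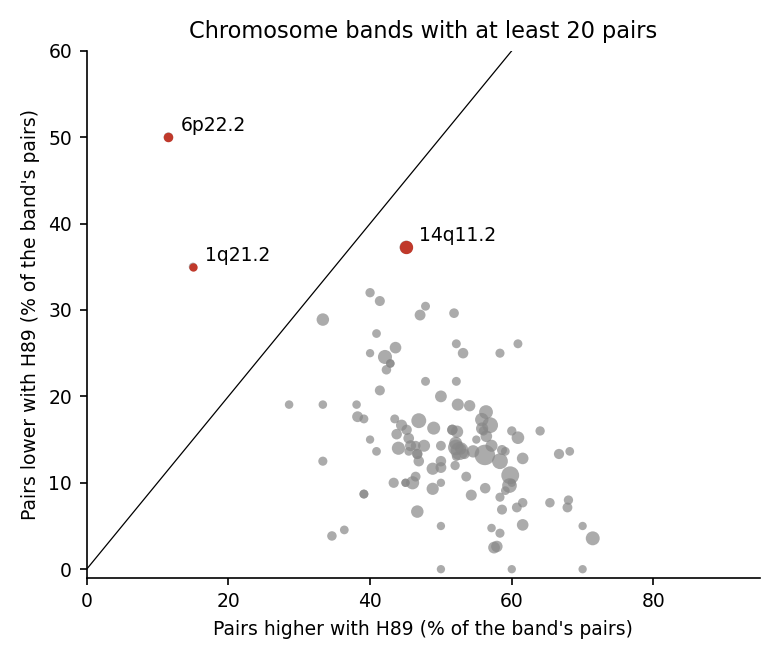
Share of pairs lower with H89 (up, percent) against the share higher with H89 (across, percent) for the 119 bands with at least 20 pairs; point area grows with the number of pairs. The bands 6p22.2 and 1q21.2 lie above the line of equal shares, and the other bands lie below it. Among the latter, 14q11.2 has 37.3% of its pairs lower with H89, between 1q21.2 (35%) and 6p22.2 (50%).

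The 13 sites in 6p22.2 lay between positions 26021877 and 26597235. Their scores were 2.44 to 7.66 with H89 (median 3.44) and 2.84 to 9.94 in control (median 6.37). Differences ran from −3.74 to −0.12. In 10 of the 13 the H89 count was exactly 1 lower at the same mean. In 1q21.2 the 7 sites were spread over 2.32 Mb. Those outside the run of 3 lay at positions 147511212, 147931234, 148247879 and 149223878. The sites at positions 149804339 and 149832608, at the ends of the run, had identical scores of 9.02 with H89 and 12.8 in control. Between them, a site at position 149814581 scored 8.81 with H89 and 10.5 in control. Whether the identical values come from duplicated sequence was not tested.

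In the other bands known to hold such histone genes, lower pairs did not outnumber higher ones. In 6p22.1, which holds the rest of the chromosome 6 cluster, 4 of 21 pairs were lower, 11 tied and 6 higher. In 1q42.13, 0 of 17 were lower and 7 higher, and in 12p12.3 0 of 2 were lower. The band 14q11.2 had 19 of 51 pairs lower (37.3%, 24.1 to 51.9%), but 23 higher. Over the 119 bands, the interval lay above 14.5% in 7. Besides 6p22.2, 14q11.2 and 1q21.2 these were 15q15.1 (8 of 25 lower), 17q21.33 (9 of 29), 19q13.42 (10 of 34) and 20q13.13 (13 of 45). The interval lay below 14.5% in 3, which were 3p21.31 (2 of 56 lower), 9q34.11 (1 of 38) and 2q13 (1 of 40).

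**Figure D5:**
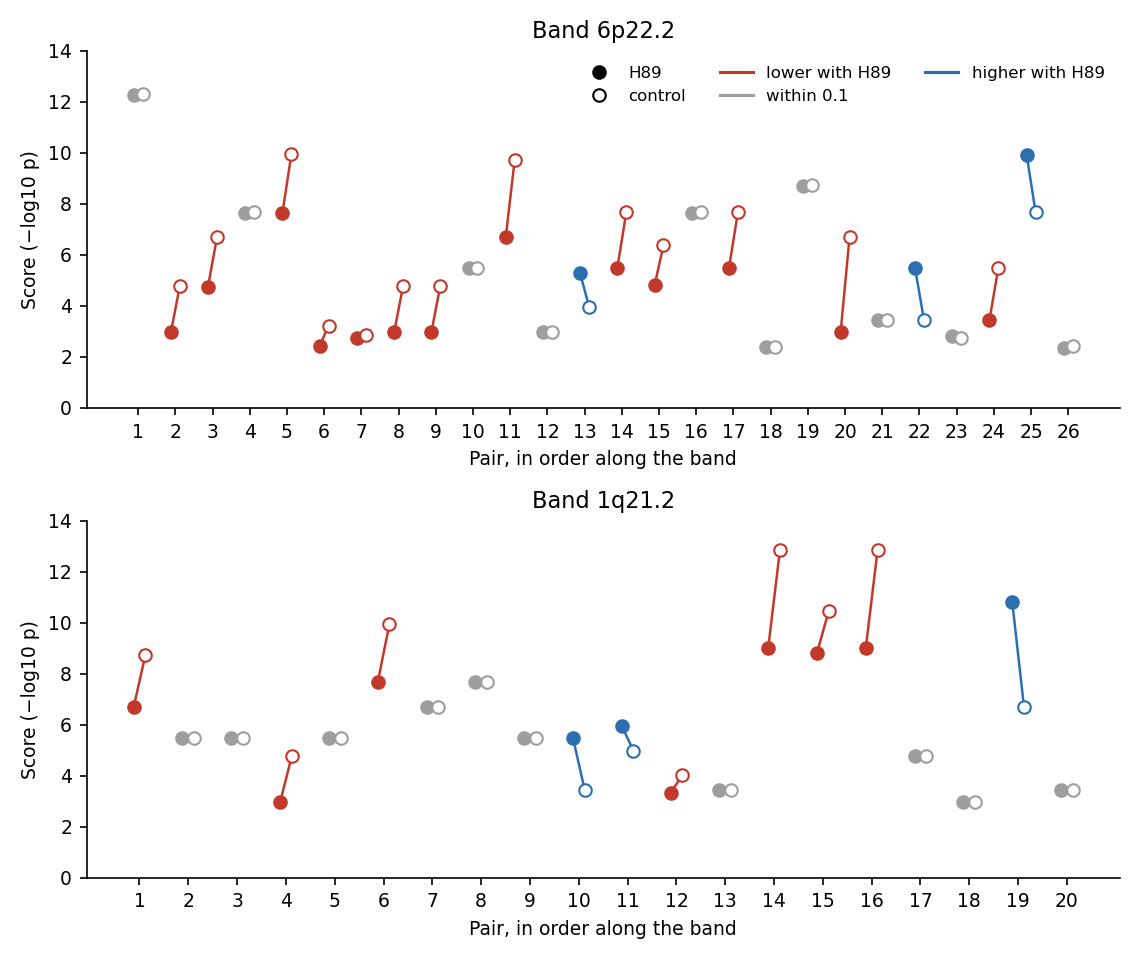
Scores (up, −log10 p) of every pair in 6p22.2 and 1q21.2, in order along the band, with H89 (filled) and in control (open), coloured by whether the pair was lower, tied or higher with H89. In 6p22.2, 13 of 26 pairs were lower and 3 higher, and in 1q21.2 7 of 20 were lower and 3 higher.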

How the data were processed

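CUT&Tag libraries of HepG2 cells with H89 and without it were compared through 2 deposited tables of peak summits, 1 for each condition. Per the submitters' processing notes, reads were aligned with Bowtie 0.12.2 to hg19. The peak caller, its control and its threshold were not given in the sources used here. The deposited score is taken as −log10 of a p-value, read from the values, since the tables have no header. Each table was tied to its library by the condition in its peak names, and no other library's columns were in the tables.

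Summits were paired when mutually nearest within 1000 bp. Scores were matched to Poisson upper tails with means equal to the lowest mean, whole multiples of a unit mean up to 200, or whole numbers up to 40, fitted on each list's commonest scores, within a tolerance of 0.001. Where several steps matched, the nearest was taken: at that tolerance 38.8% of H89 and 58.2% of control summits had a single match, and 99.1% of H89 and 99.4% of control summits did within the rounding of the tables. Intervals on shares are exact binomial (Clopper-Pearson) at 95%, and those on medians come from order statistics. Both cover counting of sites only, and depth is unknown. Bands are those of hg19 in circlize 0.4.16. No gene or sequence of hg19 was used here. Python 3.11.15 with scipy 1.17.1 was used.

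Sites named are the 10 largest drops, the 5 highest control scores (ties broken by table order), the 5 largest drops as a share of a control score of at least 5, and the pairs nearest to the limit. The members, the naming rule and the bands were chosen with earlier results of these data known. Alternatives varied the pairing distance, the limit, the score floor, percentile ranks, the contigs and the minimum number of pairs in a band.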

Additional observations from a re-analysis of the deposited data

How the results depend on the processing

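No paired analysis was possible because each condition had 1 library and no replicate number. The share of pairs lower with H89, 14.5%, was 13.2% with pairing within 100 bp, 13.3%, 12.4% and 7.22% with limits of 0.5, 1 and 2, 10.5% where both scores reached 5 and 20.1% where the control score did. By percentile rank it was 51.3%, because 2875 of the 2892 tied pairs also stood lower within the H89 list. It was 12% where the rank fell by over 10 points. The median offset was 57 bp for drops over 1, against 53 bp in the remaining pairs. For control scores of at least 5 it was 53 bp at the lower sites and 40 bp in the other pairs. Another H89 summit lay within 2000 bp at 12.6% of the sites and 12.7% of the other pairs. The bands with more pairs lower than higher numbered 0 with pairing within 100 bp or with at least 30 pairs, since 6p22.2 and 1q21.2 then held too few, and 6 with at least 10 pairs; these alternatives for bands were chosen after seeing the data. The other 18 of 32 alternatives moved values within their intervals or counts within 1.5 times, and 0 reversed a direction. None of the 32 could reverse one, since shares, offsets and counts are never negative. The drops were likewise taken over lower pairs only. The 10 largest drops kept their values wherever their pairs were kept. For the pairing distances this was fixed in advance, since a kept pair holds the same summits and scores at any distance. The 1p36.13 pair was lost with pairing within 100 or 500 bp and the 18p11.32 pair within 100 bp. Unknown depth limits every score.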
